A study of Mus musculus with 2 samples.

Results

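Axon guidance ligands and receptors were compared between anterior and posterior tissue of the mouse limb bud at embryonic day 10.5. The members are the Eph receptors and ephrins, the semaphorins with their plexin and neuropilin receptors, the Slits and Robos, and the netrins with Dcc, Neo1 and the Unc5 receptors, chosen by gene symbol alone. A mouse gene table holds 70 such genes, and 61 of them were measured by a probe set annotated to 1 symbol, out of 14860 genes and 23332 probe sets in all. The 9 others (Efna3, Ephb2, Ephb6, Nrp2, Ntn5, Plxnb3, Sema3g, Sema4c and Slit3) had no probe set of their own in the annotation used here. The samples are limb buds of wild-type embryos of CD1, an outbred stock, from 8 litters, cut into anterior and posterior tissue. Both groups share genotype, strain and age, and the labels name no agent. They give neither the limb type (fore, hind or both) nor the way the litters were divided. The forelimb gene Tbx5 differed by -0.18, and the hindlimb genes Tbx4 and Pitx1 by 0.38 and -0.05. The part of limb type in the values below was not tested. RNA of each tissue was pooled and put on 1 array, so neither group has a replicate, no value has an error, and no test is possible.

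Guidance molecules steer growing axons, migrating cells and vessels by attraction or repulsion at the cell surface. Ephrins are membrane-bound ligands that signal to Eph receptor tyrosine kinases on touching cells, and signals also run back into the ephrin-bearing cell. Semaphorins act through plexins, which the secreted class reaches with neuropilins as co-receptors, while Slits act through Robo receptors and netrins through Dcc, neogenin and the Unc5 family. In the limb bud the mesenchyme is known to make such cues for motor and sensory axons that enter from the trunk, as for blood vessels and muscle precursors. EphA4 and ephrin-A5 are known from the choice of motor axons between dorsal and ventral limb, and Sema3A with neuropilin-1 from the timing of axon entry.

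Values are log2 expression values from RMA. A difference is posterior minus anterior, and 1.3-fold, the selection the submitters name, is 0.38 on that scale. A gene was called detected where its higher value lay above 5.06, the 95th percentile of 851 receptor and defensin genes taken as background, which held for 46 of the 61 members (75.4%) and for 60.7% of all genes. As a yardstick, a local spread was taken for each gene as the robust standard deviation of the differences of the 500 genes closest to it in level. It is no replicate error. Multiples of it are of the difference from 0, with the trend left in, while the median over all detected genes was -0.07. On the whole this makes anterior multiples larger and posterior multiples smaller. Levels of different probe sets are not set against each other, since probes differ in brightness. In tissue RNA, fewer expressing cells and less RNA per cell cannot be told apart.

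The labels were checked on genes known from each side. Ptch1, the Hedgehog receptor, exceeded its anterior level 2.26-fold in posterior tissue, and Shh, Hand2 and Gli1 were also past 1.3-fold there. Gli3 and Alx4 were past 1.3-fold toward anterior tissue, and Pax9 differed by -0.37. All 11 measured limb mesenchyme markers, Prrx1, Pdgfra and Fgf10 among them, were detected.

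The 3 members that passed 1.3-fold were the netrin receptor gene Unc5c toward posterior tissue and the ephrin genes Efna5 and Efnb2 toward anterior tissue. Their promoter windows, from 250 bases before to 50 after the RefSeq start site in build GRCm38.p6, are shown so that these genes can be placed in the genome and their promoters compared. Capitals mark matches, on either strand, to the GC box GGGCGG, the box known as CCAAT, the TATA box with the letters TATAAA and the Gli site GACCACCCA; in these windows no matches overlap.
Unc5c, chr3:141465314-141465613, plus strand: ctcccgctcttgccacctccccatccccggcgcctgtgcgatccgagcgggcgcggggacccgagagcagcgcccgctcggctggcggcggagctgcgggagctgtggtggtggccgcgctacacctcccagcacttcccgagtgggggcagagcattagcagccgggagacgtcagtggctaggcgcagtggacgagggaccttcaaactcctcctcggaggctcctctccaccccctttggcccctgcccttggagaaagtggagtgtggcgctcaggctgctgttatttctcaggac
Efna5, chr17:62881268-62881567, minus strand: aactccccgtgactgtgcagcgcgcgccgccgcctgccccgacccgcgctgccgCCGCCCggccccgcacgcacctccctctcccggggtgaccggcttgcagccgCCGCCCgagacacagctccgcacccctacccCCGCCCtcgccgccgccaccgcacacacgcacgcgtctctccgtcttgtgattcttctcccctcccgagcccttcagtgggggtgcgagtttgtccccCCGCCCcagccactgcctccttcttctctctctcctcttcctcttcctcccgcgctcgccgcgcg
Efnb2, chr8:8661193-8661492, minus strand: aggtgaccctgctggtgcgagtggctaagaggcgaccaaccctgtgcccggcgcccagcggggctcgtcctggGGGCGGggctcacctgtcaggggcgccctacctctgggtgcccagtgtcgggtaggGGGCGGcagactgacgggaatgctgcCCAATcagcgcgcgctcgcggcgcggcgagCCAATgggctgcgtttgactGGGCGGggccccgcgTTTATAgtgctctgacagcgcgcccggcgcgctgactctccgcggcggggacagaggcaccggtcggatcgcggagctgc
The Unc5c window held none of the 4 motifs. The Efna5 window held 4 GC boxes, and the Efnb2 window held 3 GC boxes, 2 CCAAT matches and 1 TATAAA match on the opposite strand that begins at base -30 from the start site. All 3 windows were rich in G and C, with 68.3% for Unc5c, 73.3% for Efna5 and 72.3% for Efnb2. Of the 61 members 51 had at least 1 window in the table, and their median G and C content was 64.7%, against 56.3% over 17491 protein-coding genes. A GC box stood in 70.8% of the 65 member windows and in 35.7% of all 32851 windows, which include those of non-coding genes. CCAAT stood in 30.8% against 37.4%, and TATAAA in 3.08% against 13.6%. The Gli site was in 0 member windows and in 0.253% of all windows; these letters alone say nothing of the factor.

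Unc5c, which encodes a receptor known to mediate repulsion from netrin, showed the largest difference of the members. Its value was 6.52 in the anterior and 7.18 in the posterior array. The difference of 0.66, or 1.58-fold, was 4.27 times the local spread of 0.15. By rank it was the 48th largest posterior difference among 9017 detected genes. Efna5 encodes ephrin-A5, a ligand anchored to the membrane by a lipid. It had a value of 8.53 in the anterior and 7.98 in the posterior array, a difference of -0.55 or 1.47-fold toward anterior tissue. That is 5.15 times its local spread of 0.11 and rank 148 in the anterior direction. Efnb2 encodes ephrin-B2, a transmembrane ligand also known as a marker of arteries. Its values were 9.09 in the anterior and 8.67 in the posterior array, a difference of -0.42 or 1.34-fold, at 4.44 times the local spread of 0.10 and rank 301.

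**Figure D1:**
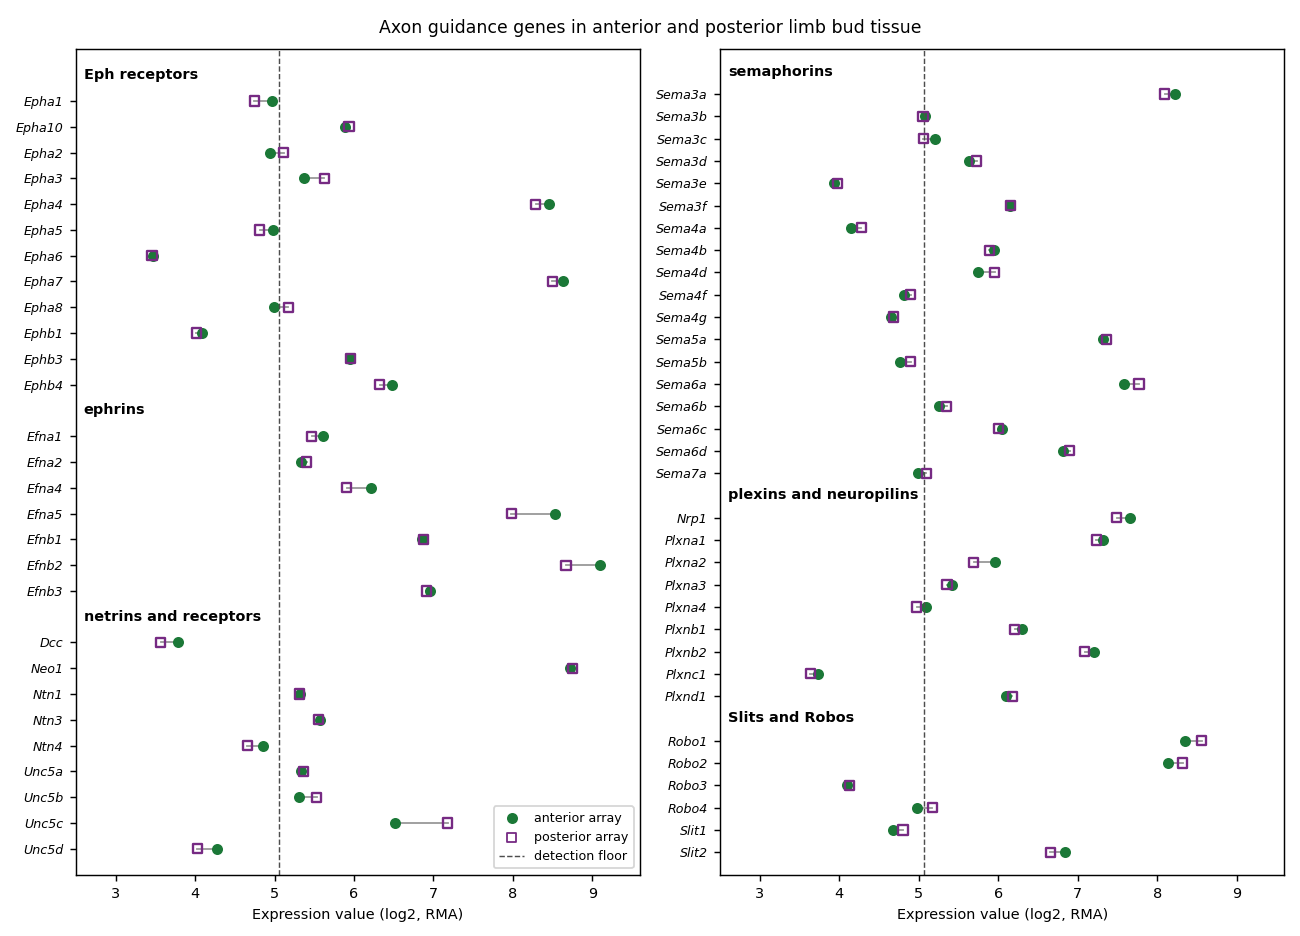
Expression values (log2, RMA) of the 61 members in the anterior array (filled circles) and the posterior array (open squares), by gene group, with 1 array per tissue and the detection floor of 5.06 as a dashed line. The widest gaps are those of Unc5c, at 6.52 and 7.18, and of Efna5, at 8.53 and 7.98.

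As a group the members differed between the tissues about as often as genes at large. Of the 46 detected members 1 (2.17%) was past 1.3-fold toward posterior tissue, against 1.85% of all detected genes, and 2 (4.35%) toward anterior tissue, against 4.68%. Over all 61 members the shares were 1.64% and 3.28%, against 3.77% and 4.8% of all genes. The median difference of the detected members was 0.00, beside -0.07 for all detected genes, and their median size of difference was 0.12, beside 0.11. Of the detected members 22 (47.8%) lay above 0, against 31.2% of all detected genes. Differences drift with level on these arrays. Once the trend with level was removed, 27 of 46 members (58.7%) lay above 0, against 49.9% of detected genes. With the trend removed Unc5c differed by 0.75, Efna5 by -0.47 and Efnb2 by -0.35, the last under 1.3-fold. That left 1 detected member past 1.3-fold in each direction, against 2.47% of detected genes toward posterior and 3.12% toward anterior tissue.

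**Figure D2:**
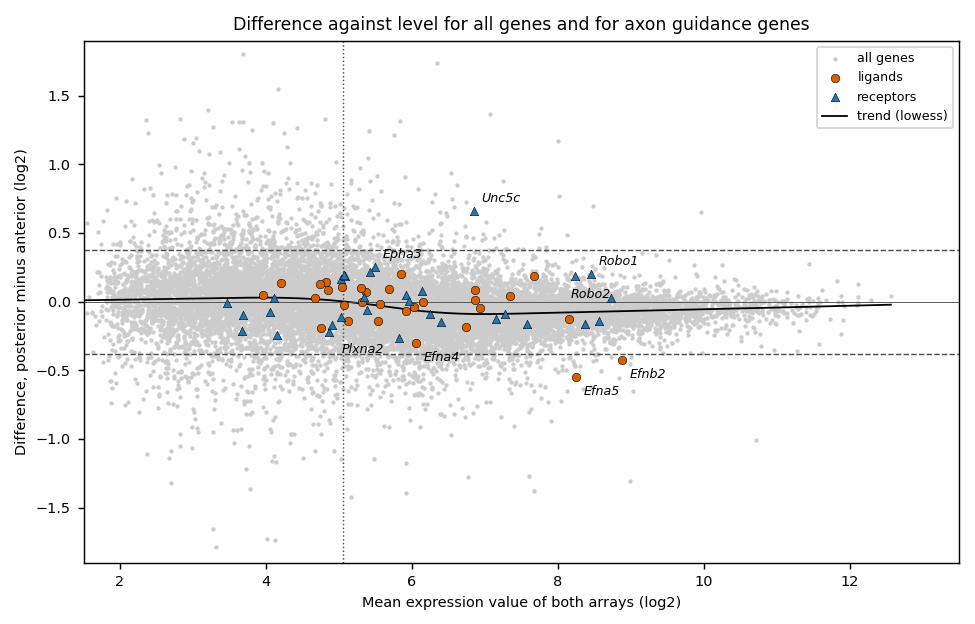
Difference (posterior minus anterior, log2) against mean level (log2) for 14860 genes (grey), guidance ligands (orange circles) and receptors (blue triangles), with the trend as a black line, 1.3-fold as dashed lines and the detection floor as a dotted line. Unc5c at 0.66 lies above the upper dashed line, and Efna5 at -0.55 and Efnb2 at -0.42 lie below the lower.

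Among the ephrins, the ligands of Eph receptors, all 7 measured genes were detected in both arrays, and 5 of 7 lay toward anterior tissue, with a median difference of -0.14. Over all detected genes 66.8% lay toward anterior tissue, with a median of -0.07. Without the trend 4 of the 7 ephrins did, beside 4516 of 9017 detected genes. In the ephrin-A class the lipid-anchored ligand gene Efna4 followed Efna5, with 6.21 in the anterior and 5.91 in the posterior array, a difference of -0.30 that missed 1.3-fold and was 1.73 times its local spread. Efna1 differed by -0.14 and Efna2 by 0.07, both within their local spreads of 0.19 and 0.20. The median of the 4 ephrin-A genes was -0.22. In the ephrin-B class Efnb2 alone had a difference larger than its local spread. Efnb1, whose loss is known to disturb skeletal patterning, had 6.86 and 6.87, and Efnb3 had 6.96 and 6.91. Removal of the trend turned Efnb3 from -0.05 to 0.04. Efna1 and Efna4 are neighbours on chromosome 3 with Efna3, not measured, between them and no further protein-coding gene.

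None of the 12 measured Eph receptor genes passed 1.3-fold, and 8 were detected. Epha7 had 8.63 in the anterior and 8.49 in the posterior array. Epha4, the receptor of dorsal limb motor axons, had 8.45 and 8.29. Both differences, -0.14 and -0.16, lay toward anterior tissue and shrank to -0.07 and -0.09 without the trend. Epha3, which binds ephrin-A5 among others, lay the opposite way, with 5.37 in the anterior and 5.62 in the posterior array, a difference of 0.25 at 1.32 times its local spread. Epha8 and Epha10 differed by 0.19 and 0.05 toward posterior tissue, and the anterior value of Epha8 was under the floor. Epha2 was read by 2 probe sets that disagreed. The brighter had 5.49 in the anterior and 5.29 in the posterior array, and the dimmer had 4.41 and 4.94. Their mean difference was 0.17, so no direction is given for Epha2. Of the EphB genes, Ephb4, the receptor known to pair with ephrin-B2 between veins and arteries, differed by -0.15, and Ephb3 had 5.95 and 5.96.

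**Figure D3:**
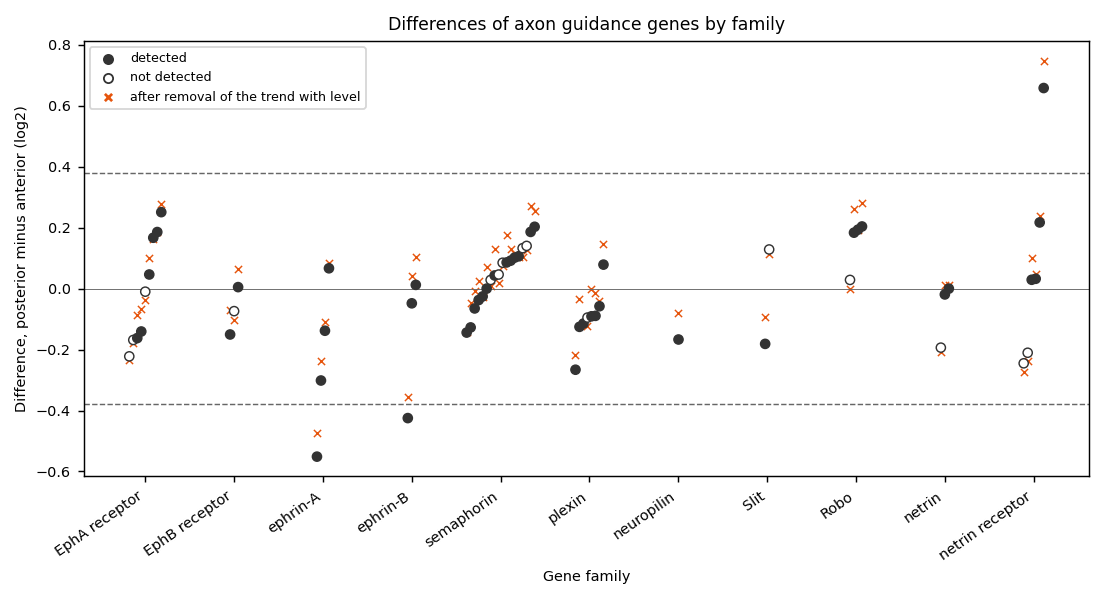
Difference (posterior minus anterior, log2) of each member by family, filled where detected and open where not, with the value after removal of the trend with level as a cross and 1.3-fold as dashed lines. The ephrin-A genes reach down to -0.55, the 3 detected Robo genes lie between 0.18 and 0.20, and Unc5c stands alone at 0.66 among the netrin receptors.

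Among netrins and their receptors, Unc5c was the sole gene past 1.3-fold. Ntn1, the founding netrin, had the same value of 5.32 in both arrays, and Ntn3 had 5.58 and 5.56. Neogenin, the receptor of netrins and of repulsive guidance molecules encoded by Neo1, had 8.72 in the anterior and 8.75 in the posterior array. The 3 other Unc5 genes did not share the size of the Unc5c difference. Unc5b, known from vessel branching, had 5.31 and 5.53, a difference of 0.22 at 1.17 times its local spread. Unc5a differed by 0.03, and Unc5d was not detected. Dcc, the main attractive netrin receptor of axons, was not detected either, with 3.78 and 3.57. Thus 6 of 9 genes of this group were detected and 1 passed 1.3-fold.

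The Robo receptor genes lay toward posterior tissue and the detected Slit gene toward anterior tissue, all under 1.3-fold. Robo1 had 8.35 in the anterior and 8.56 in the posterior array, and Robo2 had 8.14 and 8.32. The differences of 0.20 and 0.18 were 1.95 and 1.73 times their local spreads, the largest multiples among members under 1.3-fold in the posterior direction, and they became 0.28 and 0.26 without the trend. Robo1 and Robo2 are neighbours on chromosome 16, with 0 protein-coding genes between them in the gene table. Robo4, the endothelial Robo, differed by 0.19 with its anterior value under the floor, so that the fold against the floor was at least 1.08. Robo3, its neighbour on chromosome 9, was not detected. The ligand gene Slit2 had 6.83 in the anterior and 6.65 in the posterior array, a difference of -0.18 that was 1.13 times its local spread and became -0.09 without the trend. Slit1 was not detected.

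The semaphorin genes were close to even between the tissues, with differences from -0.14 to 0.20 over 18 measured genes. None passed 1.3-fold, and 13 were detected. Sema3a, the secreted repellent of limb motor axons, had 8.22 in the anterior and 8.09 in the posterior array. Sema3c, a secreted class member known from heart outflow development, differed by -0.14 with its posterior value under the floor. Sema3d differed by 0.09, and Sema3f had 6.15 in both arrays. The membrane-bound Sema4d, a ligand of plexin-B1, had the largest posterior difference, with 5.75 and 5.95, or 0.20 at 1.13 times its local spread. Of the 4 transmembrane class 6 genes, all detected, 3 lay toward posterior tissue. Sema6a, a ligand of plexin-A2 and plexin-A4, had 7.58 and 7.77, a difference of 0.19 at 1.44 times its local spread, and Sema6d differed by 0.09. Sema6c turned from -0.04 to 0.03 once the trend was removed.

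Of 9 measured plexin and neuropilin genes 8 were detected, 7 of those 8 lay toward anterior tissue, none passed 1.3-fold, and the median of the detected was -0.10, beside 66.8% of all detected genes and a median of -0.07. Nrp1, the co-receptor for Sema3A and for VEGF, had 7.65 in the anterior and 7.49 in the posterior array, a difference of -0.16. Plxna2, the receptor of transmembrane semaphorins, had 5.96 and 5.69, the largest difference here at -0.27, or 1.45 times its local spread. The exception was Plxnd1, the endothelial receptor for Sema3E, with 6.10 and 6.17, while its ligand gene Sema3e was not detected. Without the trend the median of the 8 genes was -0.04, and 7 of the 8 lay toward anterior tissue. The same held for 4516 of 9017 detected genes, with a median of -0.0002. Among the 7 were values close to 0, Plxna1 at -0.002 and Plxnb1 at -0.01.

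The 15 members not detected were Epha1, Epha5, Epha6, Ephb1, Sema3e, Sema4a, Sema4f, Sema4g, Sema5b, Plxnc1, Robo3, Slit1, Ntn4, Dcc and Unc5d. Their differences ran from -0.25 to 0.14, and values at this level have only an upper bound. A further 7 members were above the floor in 1 array alone (Epha2, Epha8, Sema3b, Sema3c, Sema7a, Plxna4 and Robo4). Their folds against the floor are lower bounds, of which the largest was 1.10. Among ligands 0 of 23 detected genes passed toward posterior and 2 toward anterior tissue, and among receptors 1 of 23 and 0. Over all detected genes the shares were 1.85% toward posterior and 4.68% toward anterior tissue, and these counts are too small to compare with them.

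Partners and intracellular effectors of the same receptors were compared as a list of 54 genes, 43 of them measured and 30 detected. Of the 30 detected, 1 passed 1.3-fold toward anterior and 0 toward posterior tissue, against 4.68% and 1.85% of all detected genes. That gene was Dpysl5, a collapsin response mediator protein of growing neurites, with 5.53 in the anterior and 4.90 in the posterior array, where it was under the floor, so that its anterior level was at least 1.39-fold higher. With an offset of 32 on the linear scale Dpysl5 came to -0.34, under 1.3-fold, and the anterior count to 0. Sipa1l1, a Rap GTPase regulator, differed by -0.32. Toward posterior tissue the largest among detected genes were those of Rgma, a ligand of neogenin, with 5.97 and 6.21, Flrt1, of a family that binds Unc5 receptors, at 0.20, and the exchange factor Trio at 0.18. Flrt3, known as an Unc5 ligand, differed by 0.12 toward posterior tissue, and Flrt2 by -0.27. The median of the 30 detected genes was -0.06, beside -0.07 for all detected genes.

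**Figure D4:**
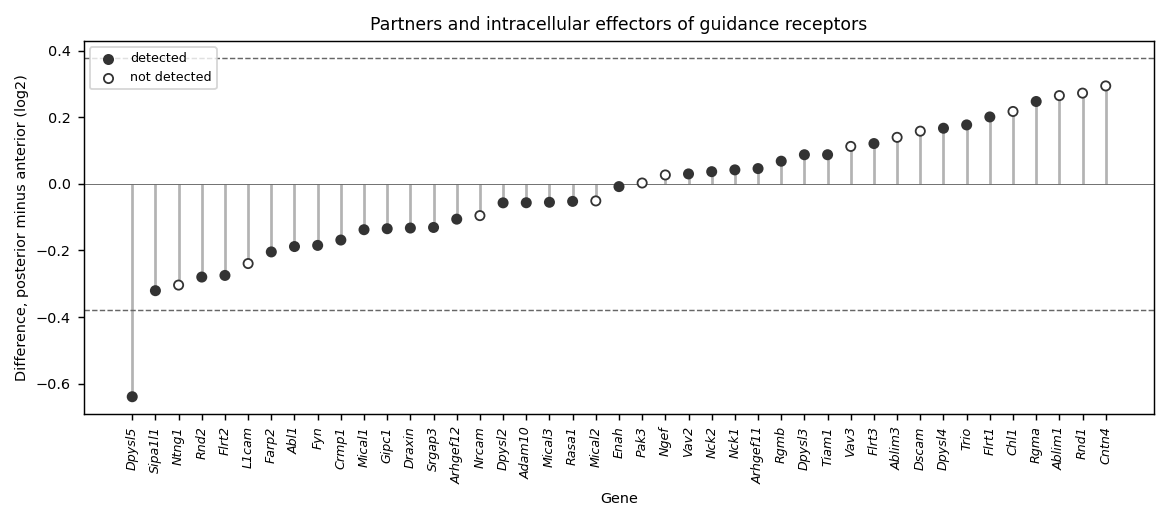
Difference (posterior minus anterior, log2) of the 43 measured partner and effector genes in order of size, filled where detected, with 1.3-fold as dashed lines. Dpysl5 at -0.64 is the sole gene past a dashed line.

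Markers of cells that carry guidance genes were read on the same arrays. Linear signal was summed over each list, genes not detected included, so near-equal sums do not show equal amounts of a cell type. The sums also depend on the brightness of the probe sets. Of 11 measured neuronal markers 5 were detected, with a summed linear signal of 758 in the anterior and 759 in the posterior array. Within them Dcx, a microtubule protein of young neurons, had 7.63 in the anterior and 6.80 in the posterior array, a difference of -0.84. Gap43 lay the opposite way, with 8.34 and 8.60, a difference of 0.26, as did Nefm, a neurofilament, at 0.56. Stmn2, with its posterior value under the floor, differed by -0.33, at least 1.16-fold against the floor. Of the 11 neuronal genes 7 lay toward posterior and 4 toward anterior tissue. Glial and neural crest markers summed to 226 and 223, with 3 of 6 detected, and muscle precursor markers to 313 and 329, with 3 of 7 detected. Myod1 of the muscle list, with its anterior value under the floor, differed by 0.41, the direction of Unc5c. Its fold against the floor was at least 1.03. Of the 7 muscle genes 4 lay toward posterior and 3 toward anterior tissue. Endothelial markers, which bear on Efnb2, Robo4 and Plxnd1, summed to 1182 and 1171, with 12 of 13 detected and a median difference of 0.00. Within them Plvap, with its posterior value under the floor, differed by -0.39 and Tek by -0.30, the direction of Efnb2. The fold of Plvap against the floor was at least 1.03. Eng lay the opposite way at 0.17, as did Sox17, not detected, at 0.35. Of the 13 endothelial genes 6 lay toward anterior and 5 toward posterior tissue. Ectoderm and ridge markers summed to 917 and 967, with 8 of 9 detected. Within them Krt5 alone passed 1.3-fold, at 0.48 toward posterior tissue, the direction of Unc5c, against 1.85% of all detected genes. Of the 9 genes 5 lay toward posterior and 4 toward anterior tissue. Blood and macrophage markers summed to 6650 and 6641, with 4 of 7 detected, and that sum is mostly the globin genes Hbb-y and Hba-x. Of the macrophage genes Tyrobp, an adaptor of immune receptors, had 6.40 in the anterior and 5.54 in the posterior array. It differed by -0.86, and C1qa, not detected, by -0.71, both in the direction of Efna5 and Efnb2. Cd68 differed by -0.14 and Csf1r, not detected, by -0.10, while Ptprc, not detected, lay the opposite way at 0.10. Limb mesenchyme markers summed to 3321 and 2912, and 3 of 11 (Msx1, Prrx2 and Twist1) were past 1.3-fold toward anterior tissue, the direction of Efna5 and Efnb2, against 4.68% of all detected genes. Tbx4 lay the opposite way at 0.38, just under 1.3-fold. Without the trend Twist1 came to -0.35, under 1.3-fold, and Tbx4 to 0.47, past it. The part of these cell types in the guidance gene differences was not tested.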

How the data were processed

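Per the labels' protocols, total RNA of pooled anterior and posterior limb bud tissue was amplified, labelled with biotin and put on Affymetrix arrays. The authors deposited log2 expression values made with RMA in Affymetrix Expression Console (core genes), per the labels. Build mm9 stands in the submitters' processing notes, with no software version. RMA equalises the overall brightness of arrays and can compress ratios at low levels. Of 23332 probe sets, 14996 had 1 symbol, 1019 several and 7317 none; probe sets of a symbol were averaged. The local spread is 1.4826 times the median absolute deviation, and the trend was fitted by lowess (fraction 0.3) with Python 3.11.15 and statsmodels 0.14.6, tested on simulated data. The arrays correlated with r = 0.993 across genes. The number of arrays limits the precision. Members and lists were chosen with earlier results of these data known. Genes given in full are the detected members past 1.3-fold and, per group, the detected member of highest level and the largest difference each way, and for the effectors the 3 largest each way (1 of these is not reported here); others were named after their values were seen. Alternatives were detected genes, median-centred arrays, trend removal, a linear offset of 32, the brightest probe set, thresholds of 1.2-fold and 1.5-fold, and other floors. Sequences are from RefSeq, build GRCm38.p6.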

Additional observations from a re-analysis of the deposited data

How the results depend on the processing

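With the trend with level removed, members past 1.3-fold toward anterior tissue were 1 in place of 2, and ephrins 1 in place of 2, since Efnb2 came to -0.35. At 1.2-fold the anterior count was 4 and at 1.5-fold it was 0; the posterior count was 1 under every alternative run. With an offset of 32 on the linear scale 0 partner and effector genes passed toward anterior tissue, where Dpysl5 came to -0.34. With the floor at the 99th percentile of the background genes 24 members were detected, and at the 90th percentile 53. The brightest probe set turned Epha2 to -0.20. Of 253 recomputed values 245 were counts within 1.5 times their value above or differences that moved by less than the local spread. Part of these could not move. The limit to detected genes leaves each named gene's value as it was, and the brightest probe set alters only genes with several probe sets. The tally is therefore no measure of robustness. When the trend was removed 4 of 61 members changed sign. No paired analysis was possible because each group holds 1 array. Counting the probe sets with several symbols, chosen after seeing the data, left both counts as they were.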

Other observations

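A probe set annotated to Nrp2 and Pard3b together, and so outside the members, had 7.03 in the anterior and 7.34 in the posterior array, a difference of 0.31 or 1.24-fold. Nrp2 encodes the second neuropilin, whose partner gene Nrp1 differed by -0.16, and the probe set does not say which of its genes carries the signal. A probe set shared by Ephb6 and Mon2 had 5.47 and 5.49. Exactly equal values in both arrays, as for Ntn1 and Sema3f, were found for 493 of 14860 genes.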
